A study of Mus musculus with 10 samples.

Results

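Interferon response genes were followed across ear skin libraries of MC903-treated mice given a urotensin II receptor antagonist or vehicle. The set was chosen by name, as 37 interferon-stimulated genes and chemokine ligands of the receptor CXCR3. Of these, 34 had a row among the 19703 genes of the deposited table and all 34 passed the filter on low counts that left 15174 genes. Mx1, Mx2 and Cxcl11 were not analysed here. Both groups carried the same model: MC903 (calcipotriol), a vitamin D analogue that provokes inflammation and itch resembling atopic dermatitis, was painted on the left ear for 7 days and again on day 8. On day 8 the antagonist group (5 libraries) was gavaged with GSK1562590, the urotensin II receptor antagonist, at 5 mg/kg in 100 µl, and the vehicle group (5 libraries) received an equal volume without it. Ear skin was taken on day 13, per the labels. The sources used here do not give strain, sex or age. No ear without MC903 was analysed here, and nothing in the labels says that each sample came from a separate mouse, so p-values measure the spread between these samples.

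Interferons are secreted when cells sense foreign or misplaced nucleic acid, or, in the case of interferon gamma, when T and NK cells are activated. Type I interferons (alpha, beta, kappa) and type III interferons (lambda) activate a complex holding STAT2 and IRF9, which binds the interferon-stimulated response element in promoters. The targets of interferon gamma include the guanylate-binding proteins and the chemokines that draw CXCR3-bearing T cells. In skin, keratinocytes, fibroblasts and leukocytes can all respond.

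The libraries held 20183024 to 20606007 expected counts each (estimated read counts, which need not be whole), so depth differed little. The ear skin label fitted the keratinocyte genes, with Krt14 at 146661 to 234611 counts in every library. For the interferon response genes, however, 3 of the 5 antagonist libraries stood apart from the other 7: antagonist replicates 4 and 6 were low and antagonist replicate 10 was high. The order counts and correlations below were not recomputed without single libraries.

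No interferon response gene differed between the groups past the threshold, while the antagonist libraries spread far wider than the vehicle libraries. With edgeR's quasi-likelihood F test, Benjamini-Hochberg adjusted over 15174 genes, 0 of 34 members were higher and 0 were lower at an adjusted p under 0.05. The background shares were 16.7% of all tested genes higher and 17.4% lower. At an unadjusted p under 0.05 there was 1 member, Trim30a, against 45.7% of all tested genes. DESeq2, limma-voom and limma-trend each called 1 member, also Trim30a, and the authors' deposited table gave 1 of 34 members a q-value under 0.05, again Trim30a. Fitted log2 fold changes (antagonist over vehicle) ranged from −1.21 for Cxcl9 to 0.89 for Rsad2 with a median of 0.068, and the median over all tested genes was −0.00018. The antagonist mean TPM was above the vehicle mean in 20 members, while the antagonist median was below the vehicle median in 23. In 29 of 34 members the fold change was smaller than its standard error. The median standard error was 0.55 for the members and 0.11 for all tested genes, so the group difference of a member was known far less precisely than that of a typical gene.

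**Figure D1:**
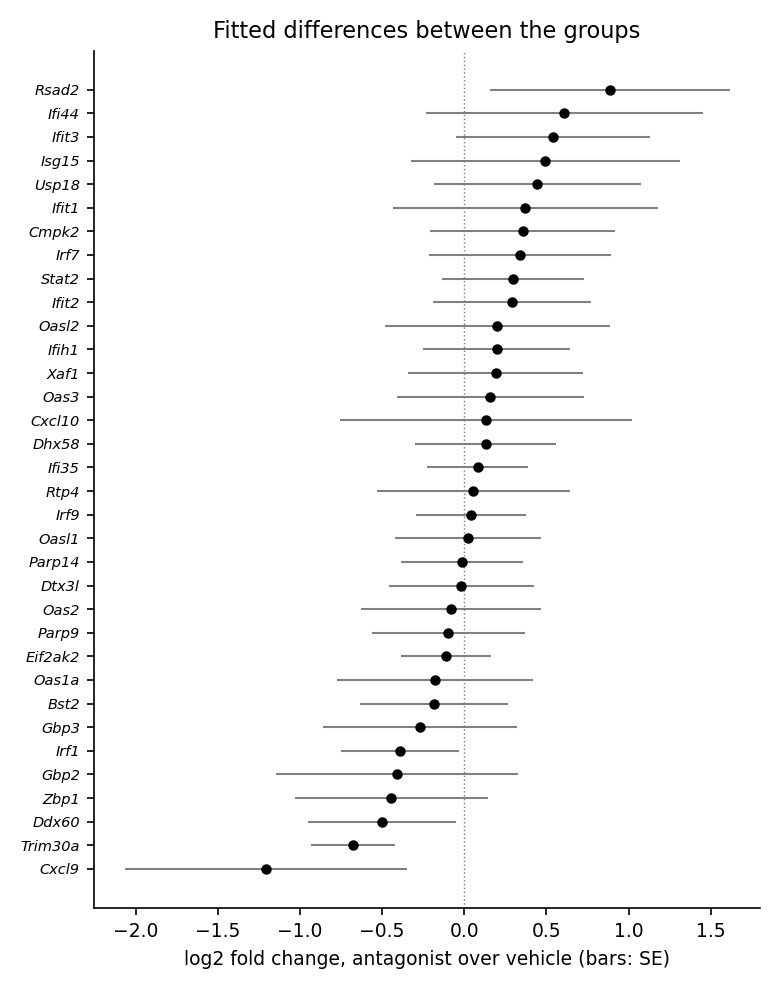
Fitted log2 fold change of each of the 34 interferon response genes, antagonist over vehicle, from edgeR (points) with its standard error (bars). Values run from −1.21 (Cxcl9) to 0.89 (Rsad2), and 0 of 34 pass an adjusted p of 0.05.

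Isg15, a ubiquitin-like protein joined to other proteins after interferon exposure, had the highest mean level of the set in TPM (a length-corrected share of transcripts). Its vehicle libraries (replicates 3, 9, 10, 11 and 12) stood at 63.8, 193, 40.4, 199 and 225 TPM. Its antagonist libraries (replicates 4, 6, 7, 8 and 10) stood at 5.06, 58.5, 194, 195 and 536 TPM. The antagonist values thus reached both below and above all vehicle values, with a 106-fold range inside the group against 5.57-fold in vehicle. The group means were 144 ± 85.3 and 198 ± 207 TPM (SD, n = 5), and the log2 fold change was 0.49 ± 0.82 (SE; edgeR adjusted p = 0.670). Leaving out single libraries moved it between −0.27 (without antagonist replicate 10) and 0.81 (without antagonist replicate 4). Isg15 lies on chromosome 4 from 156199424 to 156200818 (positions from the table, read on mouse build GRCm38).

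**Figure D2:**
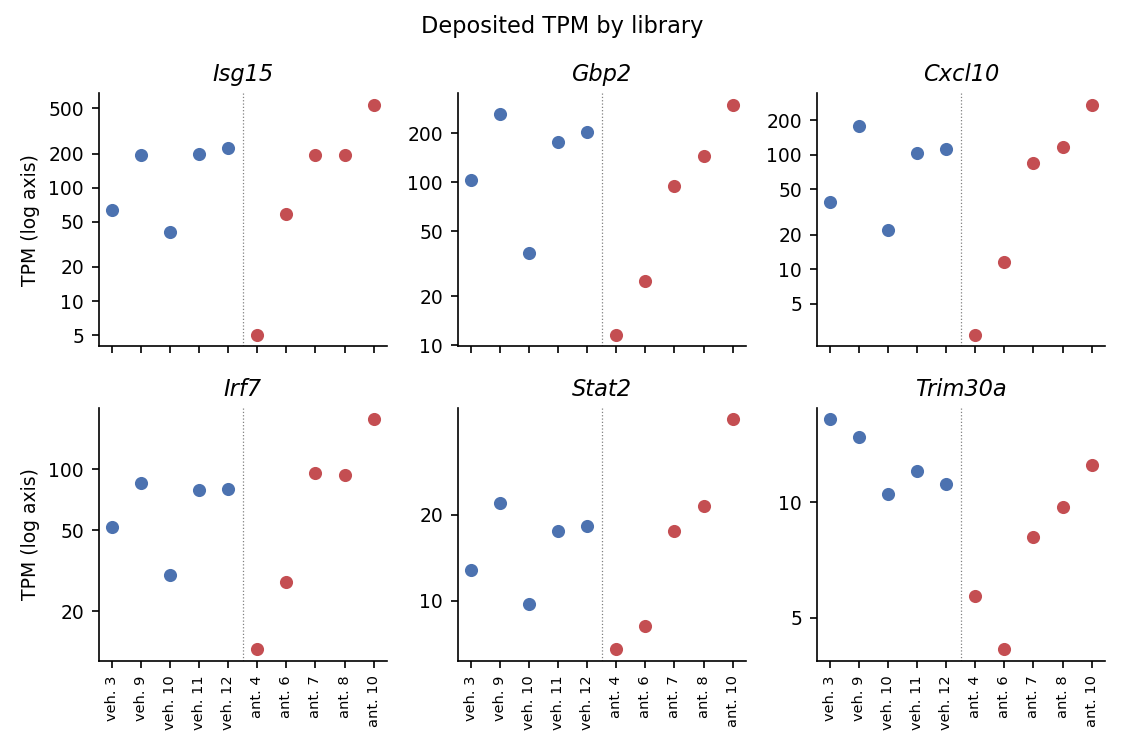
Deposited TPM (log axis) of 6 interferon response genes in each of 5 vehicle (blue) and 5 antagonist (red) libraries. In the Isg15 panel the antagonist libraries run from 5.06 to 536 TPM and the vehicle libraries from 40.4 to 225 TPM.

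The same pattern ran through the set. The antagonist libraries were both lower and higher than the whole vehicle range in 31 of 34 members, against 13.2% of all tested genes, and Cxcl9, Irf1 and Trim30a were the exceptions. Groups that did not overlap were found in 0 of 34 members and in 20.8% of all tested genes. Antagonist replicate 10 was the highest of all 10 libraries in 31 members (13.3% of all tested genes), and antagonist replicate 4 was the lowest in 30 (7.85%). In the other 4 members, Ddx60, Irf1, Oasl1 and Trim30a, antagonist replicate 6 was lowest, so 1 of these libraries was lowest in 34 of 34 members, against 20.6% of all tested genes. These orders were taken in CPM (counts scaled by library size). The choice of the set already named the wide antagonist spread, and these libraries were named from the same values. The order counts are therefore descriptions with no test. Antagonist replicates 7 and 8 both lay inside the vehicle range in 19 members, against 24.1% of all tested genes. Among vehicle libraries, replicate 10 was the lowest in all 34 members, against 21.3% of all tested genes.

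Averaged over the 34 members, log2 CPM relative to the vehicle mean was −2.44 in antagonist replicate 4 and −1.48 in antagonist replicate 6. It stood at 0.24, 0.36 and 1.25 in antagonist replicates 7, 8 and 10. The vehicle libraries lay between −0.86 (replicate 10) and 0.48 (replicate 12). Thus 0 of 34 members exceeded the vehicle mean in antagonist replicates 4 and 6, and 33 exceeded it in antagonist replicate 10. In antagonist replicates 7 and 8 the number was 24 and 26. In vehicle replicates 3, 9, 10, 11 and 12 it was 5, 33, 0, 30 and 32. This number alone thus does not set antagonist replicates 4, 6 and 10 apart from vehicle libraries. A count made after the values were seen took the genes in which antagonist replicates 4 and 6 lay below, and antagonist replicate 10 above, the other 7 libraries. It held 26 of the 34 members and 121 of 15174 genes in all, or 0.797%. Of these 121 genes, 34 others were on the lists of interferon pathway genes described below and 61 were on none of them.

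**Figure D3:**
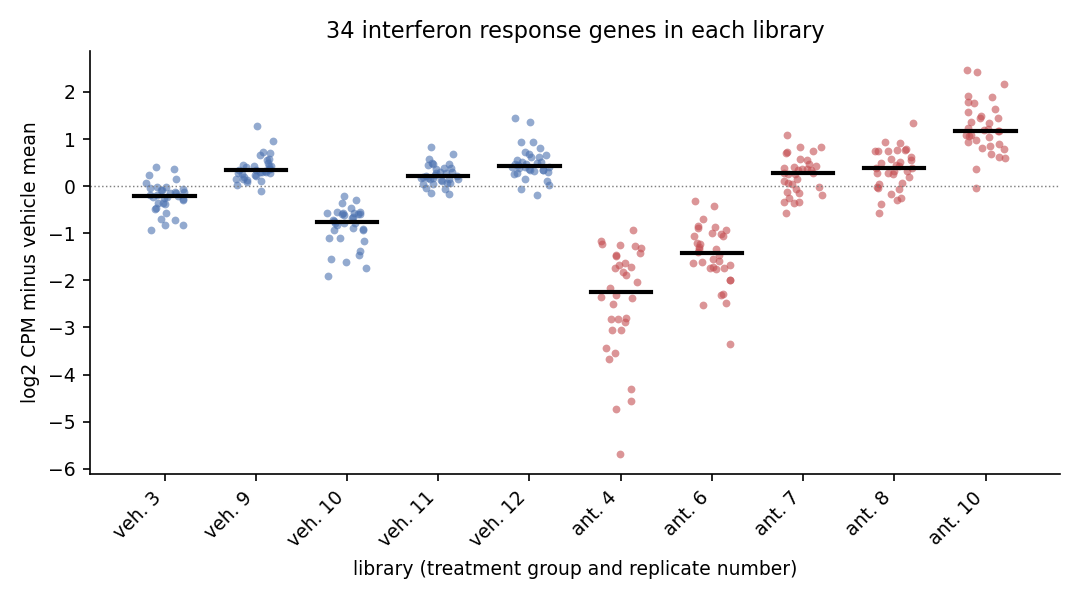
Each point is 1 of 34 interferon response genes, plotted as its log2 CPM minus its mean in the 5 vehicle libraries, for each library; black bars are medians over genes. Medians are −2.24 and −1.43 in antagonist replicates 4 and 6 and 1.18 in antagonist replicate 10.

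The standard deviation of log2 CPM was at least 2 times as large in antagonist as in vehicle libraries in 30 of 34 members, against 17.2% of all tested genes. The reverse was seen in 0 members and 8.11% of all tested genes. The median SD was 0.49 in vehicle and 1.51 in antagonist libraries for the members, and 0.15 and 0.17 for all tested genes. The ratio of the antagonist SD to the vehicle SD ran from 1.80 in Gbp2 to 5.53 in Oasl1, with a median of 2.55 for the members and 1.13 for all tested genes. The 4 members below a ratio of 2 were Gbp2, Irf1, Cxcl9 and Ifi44. The choice of the set already named the wide spread among antagonist libraries, so these values are a description with no test. Without antagonist replicate 4 the number fell to 15 of 34, against 14.4% of all tested genes, and without any other library it was 28 to 34.

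**Figure D4:**
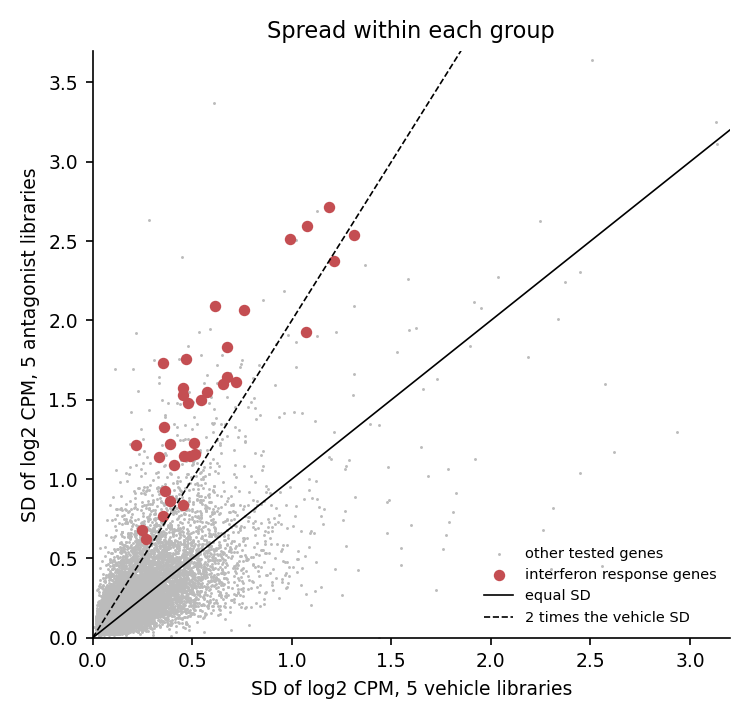
Standard deviation of log2 CPM over 5 vehicle libraries (x axis) and 5 antagonist libraries (y axis) for all tested genes (grey) and the 34 interferon response genes (red); the lines mark equal SD and 2 times the vehicle SD. Of the 34 genes, 30 lie on or above the dashed line.

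The members moved together from library to library. Across the 10 libraries the correlation of each member with the mean profile of the others ran from 0.72 (Trim30a) to 0.997 (Parp9), with a median of 0.97. Over 561 pairs of members the median correlation was 0.94, and 0.96 after each group was centred on its own mean. These are descriptions over 10 libraries, all points sharing the same libraries, scaling factors and depth.

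Promoters are shown for the 4 members with the highest mean TPM among those whose promoter held the core of the interferon-stimulated response element. Any part of the core in the shared profile of the members was not tested. The core was searched as TTTC, then 2 bases of any kind, then TTTC, on both strands (GAAA, 2 bases and GAAA when read on the other strand), with matches allowed to overlap each other. The window was 300 bases, 250 before and 50 after the transcription start, from RefSeq on GRCm38.p6. Of the 34 members, 27 had a RefSeq promoter, and 15 of the 27 (55.6%) held the core, against 3.99% of 27025 genes. A match is a description of letters and not a shown binding site. Each sequence is written 5′ to 3′ along the gene's strand, with matches in capitals: Isg15 at chr4:156200769-156201068 (minus strand), Gbp2 at chr3:142620413-142620712 (plus strand), Bst2 at chr8:71537423-71537722 (minus strand) and Cxcl10 at chr5:92348840-92349139 (minus strand).
Isg15: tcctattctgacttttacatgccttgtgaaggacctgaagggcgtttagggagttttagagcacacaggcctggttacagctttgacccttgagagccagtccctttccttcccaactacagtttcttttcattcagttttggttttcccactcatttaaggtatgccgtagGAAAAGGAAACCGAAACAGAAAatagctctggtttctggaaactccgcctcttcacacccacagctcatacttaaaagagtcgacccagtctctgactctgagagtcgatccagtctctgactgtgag
Gbp2: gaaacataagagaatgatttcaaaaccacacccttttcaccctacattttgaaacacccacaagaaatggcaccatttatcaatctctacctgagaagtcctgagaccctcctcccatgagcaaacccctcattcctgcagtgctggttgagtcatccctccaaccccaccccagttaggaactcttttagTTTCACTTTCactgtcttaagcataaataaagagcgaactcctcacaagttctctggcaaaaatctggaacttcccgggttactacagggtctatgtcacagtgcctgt
Bst2: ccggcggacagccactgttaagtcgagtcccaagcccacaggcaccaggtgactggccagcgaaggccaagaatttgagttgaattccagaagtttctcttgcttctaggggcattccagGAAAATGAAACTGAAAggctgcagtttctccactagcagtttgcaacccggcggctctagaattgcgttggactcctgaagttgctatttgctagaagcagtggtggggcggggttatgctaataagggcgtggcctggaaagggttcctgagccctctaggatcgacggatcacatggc
Cxcl10: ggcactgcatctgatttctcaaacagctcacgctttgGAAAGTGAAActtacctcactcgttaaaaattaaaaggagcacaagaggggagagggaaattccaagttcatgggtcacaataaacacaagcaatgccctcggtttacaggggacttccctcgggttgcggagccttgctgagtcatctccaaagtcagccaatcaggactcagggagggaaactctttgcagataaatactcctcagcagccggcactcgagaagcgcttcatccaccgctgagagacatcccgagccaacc

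In Isg15 3 overlapping matches began 78, 72 and 66 bases before the start, and in Bst2 2 overlapping matches began 130 and 124 bases before it. Gbp2 held 1 match 59 bases before the start and Cxcl10 1 match 213 bases before it. The core was also found in Ifit1, Ifit3, Oas1a, Oas3, Gbp3, Stat2, Eif2ak2, Rsad2, Ifih1, Ddx60 and Trim30a. It was not found in the windows of Irf7, Ifi35, Cxcl9, Irf9, Oasl2, Xaf1, Irf1, Dtx3l, Ifit2, Ifi44, Cmpk2 and Oasl1, whose letters alone say nothing of what binds there.

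Among the ligands, which start the response, few reads were found. Ifng, encoding interferon gamma, had 11, 34, 8, 15 and 18 counts in the vehicle libraries (replicates 3, 9, 10, 11 and 12) and 0, 1, 11, 9 and 22 in the antagonist libraries (replicates 4, 6, 7, 8 and 10). The antagonist libraries lowest in the interferon response genes were thus those with 0 and 1 Ifng counts, and that with most Ifng counts among antagonist libraries was antagonist replicate 10. The order was not kept over all 10 libraries. Vehicle replicate 9, with 34 Ifng counts, had a member mean of 0.37 in log2 CPM relative to the vehicle mean. Antagonist replicate 10, with 22 counts, had 1.25. The fold change of Ifng was −0.98 ± 0.69 (log2, SE; edgeR adjusted p = 0.287). The lambda interferons Ifnl2 and Ifnl3 are near-identical copies that share reads, so their counts were added. Together they had 3, 6, 0, 9 and 5 counts in vehicle and 0, 6, 7, 24 and 51 in antagonist libraries, in the same orders. Antagonist replicates 8 and 10 exceeded all vehicle libraries, and antagonist replicate 4 had none. Ifnb1, encoding interferon beta, had 0 counts in every vehicle library and 0, 2, 1, 4 and 3 in the antagonist libraries. Ifnk, the keratinocyte interferon, and the alpha genes Ifna4 and Ifnab had at most 1 count in any library, and Ifna9 had none. Of 21 listed ligand genes only 9 had a row. The other 12, Ifne and most of the alpha genes, were not analysed here, so the level of alpha interferon as a whole is not known. Ifnz, encoding interferon zeta (limitin), had 0 to 9.10 counts in vehicle and 0 to 10.4 in antagonist libraries. Of the ligands only Ifng passed the filter on low counts, and group differences in the others were not tested. Any part of the ligands in the levels of the interferon response genes was not tested.

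Of 11 receptors and proximal signalling genes 6 were lower and 1 was higher in antagonist libraries, against 17.4% and 16.7% of all tested genes (34.1% in either direction). Ifnlr1, the receptor chain that binds lambda interferon, rose from 2.96 to 5.17 TPM (0.82 ± 0.15 on the log2 scale, SE; edgeR adjusted p = 0.00331). With the mean of the cartilage markers as a covariate its log2 fold change was 0.27 (unadjusted p = 0.227 by edgeR). Its counts were 135, 172, 122, 141 and 145 in vehicle and 208, 281, 207, 223 and 340 in antagonist libraries, with no overlap. Its partner chain Il10rb fell by 0.30 ± 0.089 (log2, SE). Both chains of the type I receptor fell, Ifnar1 by 0.31 ± 0.071 and Ifnar2 by 0.26 ± 0.073. Of the interferon gamma receptor chains Ifngr2 fell by 0.35 ± 0.062, while Ifngr1 had a log2 fold change of 0.15 ± 0.14 and did not pass. Any part of these receptor differences in the spread of the interferon response genes was not tested.

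Among the kinases Jak2, which serves the interferon gamma receptor, fell by 0.56 ± 0.099 (log2, SE), while Jak1 (−0.11 ± 0.060) and Tyk2 (−0.0034 ± 0.086) did not pass. Cxcr3, the receptor of the chemokine ligands, fell by 1.29 ± 0.27 (log2, SE; edgeR adjusted p = 0.00537). Cxcr3 counts were 125, 105, 108, 99 and 90 in vehicle and 74, 20, 51, 42 and 30 in antagonist libraries, so that antagonist replicate 10, highest in Cxcl10, was among the low ones. Without single libraries, Ifnar2 lost its call without vehicle replicate 3 or antagonist replicate 6 (adjusted p up to 0.0558 by edgeR), and Il10rb without antagonist replicate 10 (0.0514). With the mean of the cartilage markers as a covariate, edgeR called 0 of 15174 genes (1894 at an unadjusted p under 0.05). Every call on pathway and marker genes given here is from the model lacking that covariate. In log2 CPM that mean was 4.95 to 5.86 in vehicle and 2.86 to 4.82 in antagonist libraries, with no overlap. The covariate thus largely follows the groups, and its fit cannot separate a group difference from a cartilage difference. With it the log2 fold changes of Cxcr3 and Jak2 were −0.52 and −0.71 (unadjusted p = 0.195 and 0.00207 by edgeR). Those of Ifnar1, Ifnar2, Il10rb and Ifngr2 were −0.23, −0.28, −0.30 and −0.34.

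Of the transcription factors Irf7, which amplifies type I interferon production, stood at 51.9, 85.6, 30.2, 78.5 and 79.7 TPM in vehicle and 13.0, 27.8, 95.5, 93.5 and 175 TPM in antagonist libraries. Stat2 stood at 12.8, 21.96, 9.72, 17.6 and 18.3 TPM in vehicle and 6.78, 8.14, 17.6, 21.4 and 43.0 TPM in antagonist libraries. Both thus had antagonist replicates 4 and 6 below and replicate 10 above every vehicle library. The log2 fold changes of Irf7 and Stat2 were 0.34 ± 0.56 and 0.30 ± 0.43 (SE). Irf9, the DNA-binding partner of Stat2, ranged from 28.8 to 58.1 TPM in vehicle and 17.9 to 81.1 TPM in antagonist libraries. Irf1, the factor most directly induced by interferon gamma, stood at 36.8, 67.7, 25.5, 39.5 and 37.4 TPM in vehicle libraries. In antagonist libraries it stood at 16.8, 14.2, 30.7, 32.9 and 60.5 TPM. Antagonist replicates 4 and 6 were again below every vehicle library. The highest Irf1 value was in vehicle replicate 9, not in antagonist replicate 10. Vehicle replicate 9 also had most Ifng counts, a match in 1 library that was not tested. The log2 fold change of Irf1 was −0.39 ± 0.36 (SE; adjusted p = 0.424 by edgeR).

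The 5 nucleic acid sensors had log2 fold changes from −0.50 (Ddx60) to 0.20 (Ifih1), none past the threshold. Ifih1 (MDA5), a sensor of double-stranded RNA, ranged from 7.28 to 17.9 TPM in vehicle and 4.18 to 31.8 TPM in antagonist libraries, and Dhx58 (LGP2), its regulator, from 7.25 to 14.01 and 4.22 to 25.7 TPM. Eif2ak2 (PKR), a kinase that halts translation on double-stranded RNA, had one of the narrowest ranges, 11.9 to 19.0 TPM in vehicle and 7.72 to 24.9 TPM in antagonist libraries. Zbp1, a sensor of Z-form nucleic acid that can trigger necroptosis, stood at 48.4, 67.3, 20.5, 60.1 and 73.7 TPM in vehicle and 5.69, 8.86, 42.1, 46.9 and 82.2 TPM in antagonist libraries. Of Zbp1, antagonist replicates 7 and 8 were within the vehicle range and below its median. Ddx60, a helicase linked to antiviral sensing, had the lowest mean of the set, 4.54 ± 1.13 TPM in vehicle and 3.19 ± 2.35 TPM in antagonist libraries (SD, n = 5).

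Antiviral effectors made up most of the set. Ifit1, which binds viral RNA, ranged 5.21-fold in vehicle (11.8 to 61.6 TPM) and 72.7-fold in antagonist libraries (1.67 to 121 TPM). Ifit3, its partner, stood at 29.6, 39.0, 19.9, 33.8 and 38.1 TPM in vehicle and 6.4, 10.7, 51.3, 53.4 and 107 TPM in antagonist libraries. In Ifit3, 3 antagonist libraries lay above and 2 below every vehicle library, and its log2 fold change was 0.54 ± 0.59 (SE, adjusted p = 0.505 by edgeR). Ifit2 ranged from 6.88 to 13.6 TPM in vehicle and 3.58 to 28.1 TPM in antagonist libraries. The antagonist SD was 4.93 times the vehicle SD in Ifit3 and 3.68 times in Ifit2.

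Rsad2 (viperin), an enzyme that makes a chain-terminating nucleotide, had the largest positive fold change of the members, 0.89 ± 0.73 (log2, SE; adjusted p = 0.366 by edgeR). It stood at 6.61, 12.7, 4.20, 13.8 and 15.7 TPM in vehicle and 1.40, 4.48, 13.2, 23.9 and 53.3 TPM in antagonist libraries. The value rested on antagonist replicate 10, without which the log2 fold change was 0.079. Cmpk2, a nucleotide kinase encoded beside Rsad2 on chromosome 12, ranged from 3.13 to 6.68 TPM in vehicle and 1.45 to 15.9 TPM in antagonist libraries. The synthetases that make the RNase L activator, Oas1a, Oas2 and Oas3, had log2 fold changes of −0.18 ± 0.60, −0.079 ± 0.55 and 0.16 ± 0.57. The related Oasl1 and Oasl2 had 0.021 ± 0.44 and 0.20 ± 0.68. Oas1a was the most abundant of the 5, at 46.5 ± 22.05 TPM in vehicle and 40.0 ± 33.3 TPM in antagonist libraries (SD, n = 5).

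Usp18, the protease that removes ISG15 and restrains the type I receptor, ranged from 6.08 to 18.9 TPM in vehicle and 1.69 to 43.0 TPM in antagonist libraries. Bst2 (tetherin), which holds budding virus at the membrane, stood at 113 ± 38.0 and 97.6 ± 69.2 TPM, and Rtp4 at 69.95 ± 21.4 and 71.3 ± 60.9 TPM (SD, n = 5). Ifi35 ranged 1.97-fold in vehicle and 3.90-fold in antagonist libraries, while Ifi44 ranged 8.12-fold and 60.6-fold. Xaf1, an apoptosis-linked protein, ranged from 19.8 to 48.5 TPM in vehicle and 6.4 to 84.2 TPM in antagonist libraries. Parp9 and its partner ubiquitin ligase Dtx3l, neighbours on chromosome 16, had log2 fold changes of −0.096 ± 0.47 and −0.018 ± 0.44, and Parp14 had −0.015 ± 0.37 (SE). In all 9 of these genes antagonist replicate 4 was the lowest and antagonist replicate 10 the highest of the 10 libraries.

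Trim30a, a mouse ubiquitin ligase that restrains Toll-like receptor signalling, was the member nearest to a group difference. It stood at 16.4, 14.8, 10.5, 12.1 and 11.2 TPM in vehicle and 5.68, 4.14, 8.10, 9.74 and 12.5 TPM in antagonist libraries. Of its antagonist values, 4 lay below all vehicle values, and that of antagonist replicate 10 lay within the vehicle range. Its fold change was −0.68 ± 0.26 (log2, SE; edgeR adjusted p = 0.0596), and it was −0.88 without antagonist replicate 10 (edgeR adjusted p = 0.0219). It was −0.56 without vehicle replicate 3 (edgeR adjusted p = 0.144) and −0.51 without antagonist replicate 6 (edgeR adjusted p = 0.107). It was also the member least like the others across libraries (r = 0.72).

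The guanylate-binding proteins are GTPases induced strongly by interferon gamma. Gbp2 stood at 103, 262, 36.7, 176 and 204 TPM in vehicle and 11.6, 24.7, 94.9, 146 and 298 TPM in antagonist libraries. Gbp3 ranged from 11.1 to 38.8 TPM in vehicle and 3.75 to 53.7 TPM in antagonist libraries. In both genes antagonist replicates 7 and 8 fell inside the vehicle range. Their log2 fold changes were −0.41 ± 0.74 and −0.27 ± 0.59 (SE), and with single libraries left out that of Gbp2 ran from −1.11 to −0.11.

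The CXCR3 ligands Cxcl9 and Cxcl10 parted in their levels in antagonist replicate 10. Cxcl10 stood at 38.3, 180.0, 21.9, 105 and 113 TPM in vehicle and 2.68, 11.7, 84.0, 117 and 272 TPM in antagonist libraries. Cxcl9, which depends more strictly on interferon gamma, stood at 34.01, 96.5, 14.4, 81.8 and 154 TPM in vehicle and 1.11, 5.28, 41.4, 38.1 and 74.3 TPM in antagonist libraries. In antagonist replicate 10 Cxcl10 was thus above, and Cxcl9 below, the highest vehicle value. Cxcl9 had the most negative fold change of the set, −1.21 ± 0.86 (log2, SE; adjusted p = 0.293 by edgeR), and Cxcl10 had 0.13 ± 0.89 (adjusted p = 0.922 by edgeR). With single libraries left out, Cxcl9 ran from −1.75 to −0.76 and Cxcl10 from −0.68 to 0.51, each lowest without antagonist replicate 10.

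Other genes of the pathway were taken from lists, whose calls are to be read against the 34.1% of all tested genes called in either direction. Of 42 tested further interferon-stimulated genes 3 were lower and 0 higher, with a median log2 fold change of −0.092. An antagonist SD at least 2 times the vehicle SD was seen in 34, against 17.2% of all tested genes. Ifitm1, an antiviral membrane protein, fell by 1.34 ± 0.21 (log2, SE), from 417 to 162 TPM, Epsti1 by 0.79 ± 0.19, and Uba7, the enzyme that activates ISG15, by 0.64 ± 0.21. Uba7 lost its call without any one of 8 libraries (adjusted p up to 0.0774 by edgeR). Ifitm1, Epsti1 and Uba7 had log2 fold changes of −1.33, −0.79 and −0.96 with the cartilage covariate (unadjusted p = 0.00566, 0.0566 and 0.0327 by edgeR). Ifi27, Samd9l and Ifitm2 had log2 fold changes of −0.31 ± 0.14, −0.61 ± 0.28 and −0.19 ± 0.096 and did not pass. The list thus resembled the members in having few calls and a wide antagonist spread, while Ifitm1 had a ratio of SDs of 1.04.

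Of 18 tested interferon gamma targets 1 was lower and 0 higher, with a median of −0.37. The wide antagonist spread was seen in 6 of the 18, against 17.2% of all tested genes. The median ratio of SDs was 1.87 for this list and 1.13 for all tested genes. The one that fell was Ciita, the master regulator of MHC class II, by 1.46 ± 0.23 (log2, SE), and its log2 fold change was −0.95 with the cartilage covariate (unadjusted p = 0.0288 by edgeR). Serping1, the C1 inhibitor, had −0.23 ± 0.087 (adjusted p = 0.0590 by edgeR). Gbp8, Gbp9, Gbp10 and Nos2, the inducible nitric oxide synthase, had fold changes of −0.92 ± 0.62, −0.44 ± 0.35, −0.92 ± 0.53 and −0.76 ± 0.44, none past the threshold.

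Of 16 genes of nucleic acid sensing 2 were lower and 1 was higher, against 17.4% and 16.7% of all tested genes. The other 13 did not pass, and the median was −0.10. Sting1, the adaptor of DNA sensing, fell by 0.94 ± 0.15 (log2, SE), from 47.5 to 24.8 TPM, and Tlr9, a receptor of DNA in endosomes, by 0.96 ± 0.25. Mavs, the adaptor of RNA sensing, rose by 0.29 ± 0.074. With the cartilage covariate the log2 fold change of Tlr9 was −0.55 (unadjusted p = 0.237 by edgeR). Those of Sting1 and Mavs were −1.04 and 0.36 (unadjusted p = 0.00406 and 0.0197 by edgeR). The DNA sensor Cgas (−0.30 ± 0.16), Irf3 (0.19 ± 0.092) and Irf8 (−0.31 ± 0.15) did not pass. Of 8 inhibitors of interferon signalling 3 were lower and 0 higher, against 17.4% and 16.7% of all tested genes. Their median was −0.14. Socs3 fell by 1.11 ± 0.12, Socs1 by 0.88 ± 0.26 and the phosphatase Ptpn2 by 0.35 ± 0.064, while Ptpn6, Pias1 and Ptpn11 had −0.22 ± 0.11, 0.10 ± 0.059 and −0.041 ± 0.055. Socs1, itself induced by interferon, missed the threshold once vehicle replicate 9 was left out (edgeR adjusted p = 0.0523). Socs3, Socs1 and Ptpn2 had log2 fold changes of −1.32, −1.23 and −0.30 with the cartilage covariate (unadjusted p = 6.37e-05, 0.0258 and 0.0285 by edgeR).

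Outside the 34 members, the genes whose profile was most like the members' mean, taken from 13485 genes averaging at least 1 in log2 CPM, included H2-T23, Psmb9, H2-D1, Phf11d, Herc6, Ddx58, Trim34a, Mlkl and Parp10. Their correlations over 10 libraries, after each group was centred, ran from 0.990 to 0.995. H2-D1, a classical MHC class I heavy chain, ranged from 870 to 1331 TPM in vehicle and 684 to 1470 TPM in antagonist libraries. Psmb9, an immunoproteasome subunit, ranged from 35.1 to 79.8 and 17.3 to 85.9 TPM, and Mlkl, the effector of necroptosis, from 12.8 to 23.1 and 6.13 to 24.0 TPM. None of these genes differed between the groups past the threshold.

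Markers of other cell types moved with the groups or with single libraries, and in bulk tissue fewer cells of a type and less RNA per cell cannot be told apart. Of 11 tested T and NK cell markers 7 were lower and 0 higher in antagonist libraries, and their summed level was 77.9 to 134 CPM in vehicle and 19.8 to 45.5 CPM in antagonist libraries. The mean log2 CPM of these markers was 0.64 and 0.42 in antagonist replicates 4 and 6, and 1.70, 1.64 and 1.71 in replicates 7, 8 and 10. The antagonist libraries lowest in interferon response genes were thus also lowest in T and NK cell markers, but replicate 10 lay close to replicates 7 and 8. Of 14 tested cartilage markers 10 were lower and 0 higher, summing to 905 to 1621 CPM in vehicle and 501 to 911 CPM in antagonist libraries, and Matn1 had at most 2 counts. Their mean log2 CPM was 4.82 in antagonist replicate 4, 3.26 in replicate 6, 4.11 in replicate 7, 3.74 in replicate 8 and 2.86 in replicate 10. Siglech, a marker of plasmacytoid dendritic cells, which are known for making type I interferon, fell by 2.23, with 92.8 to 164 counts in vehicle libraries and 20.8, 6.21, 36.1, 63.3 and 7.18 counts in antagonist replicates 4, 6, 7, 8 and 10. The antagonist library highest in interferon response genes thus had few Siglech counts. Of the 5 plasmacytoid markers 2 were lower and 0 higher, and of 9 monocyte and macrophage markers 5 were lower and 1 higher, against 17.4% of all tested genes lower and 16.7% higher. Neutrophil, fibroblast and red blood cell markers were lower in 4 of 5 tested genes each. The red blood cell markers had a mean log2 CPM of 5.53 in antagonist replicate 4, 2.47 in replicate 6 and 2.28 in replicate 10. Of the endothelial markers 1 of 5 was lower, 1 of 8 keratinocyte markers was higher, and 0 of 5 skeletal muscle and 0 of 4 adipocyte markers were called by edgeR (1 and 0 at an unadjusted p under 0.05). The part of these markers in the spread of the interferon response genes was not tested.

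**Figure D5:**
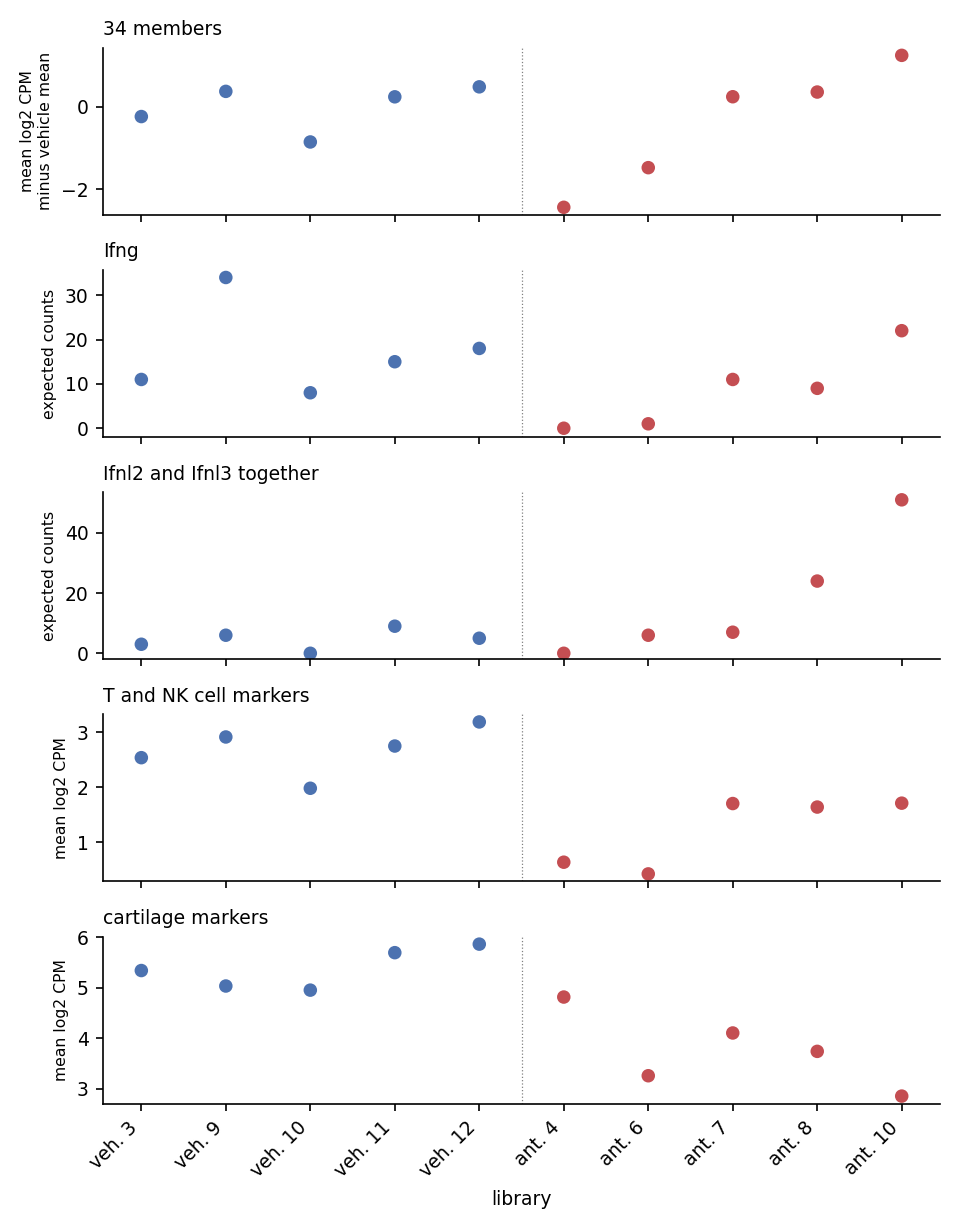
Values in each of the 5 vehicle (blue) and 5 antagonist (red) libraries: mean log2 CPM of the 34 interferon response genes minus the vehicle mean, expected counts of Ifng, expected counts of Ifnl2 and Ifnl3 together, and mean log2 CPM of T and NK cell and of cartilage markers. Antagonist replicate 10 is highest in the top panel (1.25) and in the lambda interferons (51 counts), and lowest in cartilage markers (2.86). Ifng is highest in vehicle replicate 9 (34 counts), and the T and NK cell markers in vehicle replicate 12 (3.18).

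Some counts carry reads that could belong to more than one gene. In 23 of 34 members at least 1 library had a count that was not whole. In the table, Ifit1 lies inside Ifit1bl1 on the same strand, and Cxcl10 lies within Art3 on the opposite strand. Stat2 and Apof overlap by 753 bases on the same strand. Eif2ak2, Rtp4 and Usp18 also overlap other genes, on the opposite strand, and Parp9 overlaps Kpna1 on the same strand. Parp9 and Dtx3l overlap by 558 bases and Dhx58 and Zfp385c by 5403 bases on opposite strands, which reads without strand information cannot separate.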

How the data were processed

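RNA was selected with oligo(dT) beads, copied with random hexamers and sequenced as DNA nanoballs, per the labels' protocols, which mention no step that marks the strand. Alignment software is given as HISAT, per the submitters' processing notes. Its version, the counting tool, the annotation and the build: not given in the sources used here. The authors deposited expected counts (estimated counts), TPM and FPKM per library, with group means. They also deposited log2 fold changes and DESeq2 p-values and q-values, as named per the file headers. FPKM were not used. The table has 1 empty line, and 0 per-library columns were left unmatched. All 34 members overlapped their RefSeq gene on GRCm38.p6, as did 19544 of 19645 matched genes.

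Expected counts were rounded, filtered with filterByExpr and scaled by TMM. The group comparison used edgeR 4.0.16 under R 4.3.3 with group as the single term, and all 15174 tested genes were adjusted together. The SE is the fold change over the square root of F. Log2 CPM carry a prior count of 2. The code was tested on simulated data. The closest pair of libraries differed by 21.4 times sampling noise, so none was counted as a copy. Named genes were all members, the receptors and ligands, the 6 smallest p of each list and the 10 genes most like the members; 1 gene is not reported here. The members, lists and tests were chosen with earlier results of these data known. Alternatives were other scalings, no filter, robust estimation, DESeq2 1.42.0, limma 3.58.1 (voom with sample weights; trend on TPM), a cartilage covariate and each library left out.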

Additional observations from a re-analysis of the deposited data

How the results depend on the processing

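The number of members called higher stayed at 0 in all 19 alternatives. The number called lower was 1 in place of 0 under DESeq2, limma-voom with sample weights and limma-trend on log2(TPM + 1) and log2(TPM + 0.1), and 0 to 1 with single libraries left out; the gene was Trim30a each time. The number of members with a log2 fold change above 0, a count added after the data were seen, was 20 with edgeR, 0 with the cartilage covariate, 3 under limma-voom, 3 and 2 on TPM with pseudocounts of 1 and 0.1, and 1 to 28 with single libraries left out. It was 1 without antagonist replicate 10 and 28 without antagonist replicate 4. Limma averages logarithms and edgeR fits means of counts. With the cartilage covariate the median fold change of the members was −1.25 (−2.57 to −0.64). Of the members, edgeR then called 0, and 2 had an unadjusted p under 0.05. That covariate did not overlap between the groups, so this fit cannot separate a group difference from a cartilage difference. The cause of the shift was not tested. RLE and upper-quartile scaling, robust estimation, no filter and DESeq2 changed the sign of 0 members. The number of members with at least 2 times the vehicle SD was 30 with a prior count of 0.5 and 15 to 34 with single libraries left out, the 15 being without antagonist replicate 4. A fold change smaller than its SE was not read as a direction. No paired analysis was possible because the groups share 1 replicate number. The ligands' low counts limit what can be said of them.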
